A study of Mus musculus with 5 samples.

Results

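Transcripts of the CD4 and CD8 coreceptors and of 7 nuclear factors that act on the choice between the CD4 and CD8 lineages were examined in mature CD8 single-positive thymocytes, the thymic T cells that have shut off Cd4 and are about to leave as CD8 T cells. The 10 genes, chosen by name, were Cd4, Cd8a, Cd8b1, Zbtb7b, Gata3, Tox, Myb, Satb1, Bcl11b and Patz1, and all 10 were present among the 35976 genes of the count files. Cells were purified by flow cytometry from the thymus of mice, and 5 bulk RNA-seq libraries were made, 2 from wild-type Runx3 +/+ mice and 3 from Runx3 +/WRPW heterozygotes, which carry 1 Runx3 allele named WRPW. No treatment is named for either genotype, and the sources used here do not give age, strain, sorting markers or the number of animals per library. The labels do not say that libraries of a genotype came from separate mice, and each p-value therefore reflects variation among these libraries alone, which may be technical.

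As background, CD4 and CD8 are the receptors with which a thymocyte reads MHC class II or class I beside its T cell receptor, and a double-positive thymocyte carries both before it keeps 1 of them. ThPOK, the product of Zbtb7b, directs cells to the CD4 lineage and keeps Runx3 off, while Runx3 directs them to the CD8 lineage and silences both Cd4 and Zbtb7b. GATA3, TOX and MYB act before ThPOK in CD4 lineage choice, and SATB1, BCL11B and MAZR (the product of Patz1) act on the coreceptor and lineage factor genes themselves. The last residues of Runx proteins, VWRPY, recruit Groucho/TLE corepressors, a contact that Hes repressors make through WRPW.

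Total counts ran from 15715242 to 43758550 per library. Runx3 +/WRPW library 2 stood apart, with a count at 27414 genes against 17237 to 18967 in each of the other 4, so values are given by library and the main differences also without it. Transcripts of the T cell receptor complex (Cd3d, Cd3e and Cd3g) and of both CD8 chains were abundant in every library, with the 5 measured CD8 T cell markers summing to 4849 to 5827 CPM, the counts scaled to library size. The 4 myeloid markers summed to 0.839 to 1.35 CPM in the other 4 libraries and to 5.54 CPM in Runx3 +/WRPW library 2, where Csf1r was at 2.55 CPM. The 4 red cell markers summed to 0.467 to 0.846 CPM. Of these, Alas2 was at 0.374 to 0.686 CPM over the 5 libraries, and Hba-a1 and Hba-a2 had no count. Counts per gene do not separate the Runx3 alleles and so do not check the genotype labels. Total Runx3 transcripts were at 273 and 357 CPM in Runx3 +/+ and at 394, 341 and 422 CPM in Runx3 +/WRPW, a difference that did not pass (edgeR adjusted p = 0.234).

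Promoter sequence was available for 7 of the 10 genes (Cd8a, Zbtb7b, Gata3, Satb1, Bcl11b, Myb and Patz1), from RefSeq on GRCm38.p6, the assembly that mm10 names. The Runx binding motif was searched as TGTGGT or TGCGGT on both strands in the 250 bases before each of their 13 annotated start sites. It occurred in 1 window, at Zbtb7b, against 18.6% of all 32851 such windows. A match is a description of letters and not of binding. The 3 windows shown belong to Cd8a, with high transcript levels, to Zbtb7b, nearly silent in these cells, and to Gata3, which encodes a factor acting upstream of Zbtb7b; each is written in the direction of transcription with the motif in capitals. The Cd8a window (chr6:71373177-71373426, plus strand) lies outside the gene. Of 2 Zbtb7b windows, the one nearer the 5' end of the gene (chr3:89393379-89393628) shares 152 bases with annotated exons and holds no motif. The Zbtb7b window shown (chr3:89387672-89387921, minus strand) lies inside the gene span and touches no annotated exon. Its motif starts 89 bases before that start site. The Gata3 window (chr2:9878601-9878850, minus strand) likewise lies inside the gene span and touches no annotated exon.
Cd8a: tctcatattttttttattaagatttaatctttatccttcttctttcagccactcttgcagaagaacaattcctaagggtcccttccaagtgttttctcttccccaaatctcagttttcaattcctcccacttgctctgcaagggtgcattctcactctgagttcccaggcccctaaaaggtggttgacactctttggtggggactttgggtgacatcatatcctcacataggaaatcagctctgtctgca
Zbtb7b: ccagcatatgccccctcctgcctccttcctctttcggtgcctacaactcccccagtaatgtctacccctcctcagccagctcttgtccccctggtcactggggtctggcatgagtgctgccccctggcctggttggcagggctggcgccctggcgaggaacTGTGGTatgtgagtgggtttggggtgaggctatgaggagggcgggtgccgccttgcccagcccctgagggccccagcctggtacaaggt
Gata3: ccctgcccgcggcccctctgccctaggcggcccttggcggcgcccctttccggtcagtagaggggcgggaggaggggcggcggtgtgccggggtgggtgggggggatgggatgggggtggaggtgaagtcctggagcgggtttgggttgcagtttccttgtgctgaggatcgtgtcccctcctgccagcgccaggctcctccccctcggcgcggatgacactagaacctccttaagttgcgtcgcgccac

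The 10 genes covered a wide range of levels. Scaled by exon length, as CPM per kb, the order of the Runx3 +/+ means was Cd8b1 (696 ± 236, SD, n = 2), Cd8a (663 ± 80.7), Bcl11b (73.0 ± 9.01), Satb1 (68.7 ± 1.25), Tox (17.1 ± 2.60), Patz1 (16.1 ± 1.18), Gata3 (10.9 ± 2.04), Myb (8.06 ± 1.94), Cd4 (0.722 ± 0.857) and Zbtb7b (0.0584 ± 0.0119). Over the 5 libraries, the ranges of Cd8b1 and Cd8a overlapped, as did those of Bcl11b and Satb1, of Tox and Patz1, of Gata3 and Myb, and of Cd4 and Zbtb7b. No other neighbours in that order overlapped. Exon length here merges every annotated exon of a gene (19027 bases for Satb1, 8111 for Bcl11b). The order rests on that choice, and other lengths were not tested. In the Runx3 +/WRPW means (n = 3) Cd8a at 679 ± 51.1 CPM per kb stood before Cd8b1 at 535 ± 23.6, and Myb at 9.77 ± 1.07 before Gata3 at 7.85 ± 0.740, while the other ranks were as in Runx3 +/+. The CD8 chain genes lay at or above the 99.78 percentile of the 12374 tested genes with an exon length in every library, Gata3 and Myb between the 49.03 and 64.8 percentiles, and Cd4 between the 0.550 and 22.6 percentiles.

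**Figure D1:**
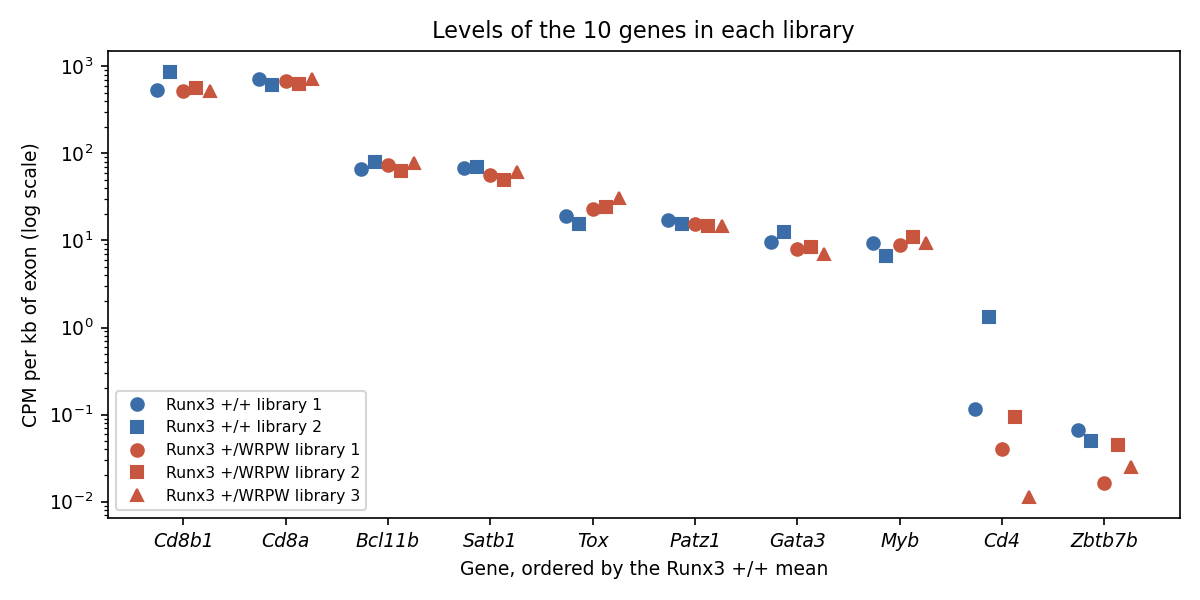
CPM per kb of exon on a log axis for each of the 10 genes in each library (blue, Runx3 +/+; red, Runx3 +/WRPW; marker shape, library number). Levels fall from 516 to 862 for Cd8b1 down to 0.0164 to 0.0668 for Zbtb7b, and the single raised Cd4 value, 1.33, is Runx3 +/+ library 2.

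The comparison asked which of these genes differ when 1 Runx3 allele is WRPW. Of the 9 genes that passed the count filter, 0 passed edgeR's quasi-likelihood test at a Benjamini-Hochberg adjusted p of 0.05, where 13.6% of the 13666 genes tested did. At an unadjusted p under 0.05 there were 4 (Cd4, Tox, Gata3 and Satb1), beside 29.8% of all genes. The genotypes did not overlap for the same 4 of the 9, beside 48.5% of all genes. On the same counts DESeq2 called these 4 genes (19.8% of all genes) and limma-voom called 1, Tox (14% of all genes). Tox was also the 1 gene called with upper-quartile factors (13.7% of all genes) and with a filter at 1 CPM (17.3%). None of the 9 was called by edgeR with RLE factors (13.3%), robust dispersion estimates (13.9%), no low-count filter (3.77%) or the replicate number as a block (5.52%). With 1 library left out, 1 gene, Cd8b1, was called without Runx3 +/+ library 1 (2.95%), and 0 without Runx3 +/+ library 2 (1.52%) or Runx3 +/WRPW library 1 (5.71%), 2 (10.8%) or 3 (6.97%). The median log2 fold change of the 9 was -0.11, against 0.02 over all genes tested.

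**Figure D2:**
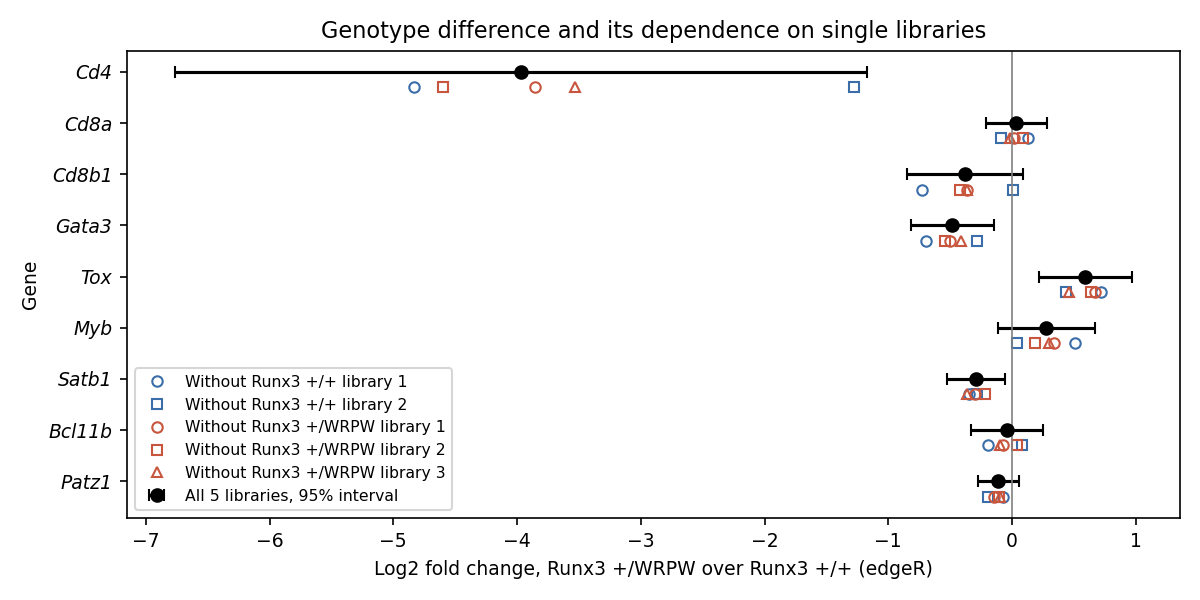
Log2 fold change of Runx3 +/WRPW over Runx3 +/+ with its 95% interval (black) for the 9 tested genes, and the same value with each library left out (open symbols). The Cd4 estimate moves from -3.97 to -1.28 without Runx3 +/+ library 2, and the Cd8a estimates all lie close to 0.

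Of the coreceptor genes, Cd8a (chromosome 6, 71373427 to 71379171, mm10) encodes the chain that CD8 homodimers and heterodimers share. Its level was 2617 CPM in Runx3 +/+ library 1 and 2202 CPM in library 2, and in Runx3 +/WRPW it was 2501, 2268 and 2635 CPM. The genotypes overlapped. The log2 difference was 0.03 ± 0.10 (SE; edgeR adjusted p = 0.860), with a 95% interval from a ratio of 0.862 to a ratio of 1.22.

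Cd8b1 (chromosome 6, 71322788 to 71337492), upstream of Cd8a on the same strand, encodes the beta chain of the CD8 heterodimer. Its levels were 784 and 1279 CPM in Runx3 +/+ and 765, 833 and 783 CPM in Runx3 +/WRPW. Runx3 +/+ library 2 was high and the other 4 libraries lay together. The log2 difference of -0.38 ± 0.19 did not pass (edgeR adjusted p = 0.253; 95% interval -0.85 to 0.09). Without Runx3 +/+ library 1 the gene was called lower, at -0.73 (adjusted p = 0.0294), and without Runx3 +/+ library 2 the difference was 0.01 (adjusted p = 0.969).

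The ratio of Cd8b1 to Cd8a counts, which needs no scaling between libraries, was 0.300 and 0.581 in Runx3 +/+ and 0.306, 0.367 and 0.297 in Runx3 +/WRPW. The means were 0.440 ± 0.199 (SD, n = 2) and 0.323 ± 0.0381 (SD, n = 3). The log2 difference was -0.37, with a two-sided exact permutation p = 0.6 over 10 arrangements, of which the smallest possible p is 0.1. Without Runx3 +/+ library 2 the difference was 0.10.

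**Figure D3:**
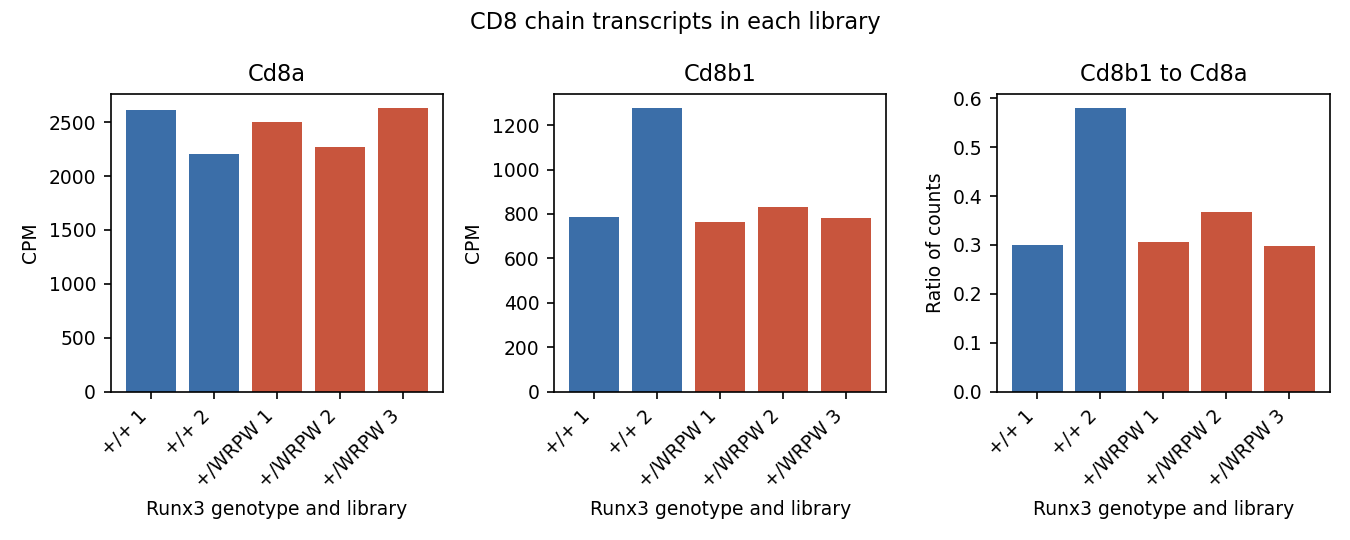
Bars of Cd8a CPM, Cd8b1 CPM and the ratio of their counts in each library (blue, Runx3 +/+; red, Runx3 +/WRPW). Runx3 +/+ library 2 has the highest Cd8b1 value (1279 CPM) and ratio (0.581), while the other ratios lie between 0.297 and 0.367.

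Cd4 (chromosome 6, 124864693 to 124888247), the coreceptor gene that CD8 lineage cells silence, had 10 and 134 counts in the Runx3 +/+ libraries and 7, 6 and 1 counts in Runx3 +/WRPW libraries 1, 2 and 3. In CPM these were 0.467 and 5.36 against 0.160, 0.374 and 0.0460. Runx3 +/+ library 2 was alone above the rest, with an exact Poisson 95% interval of 4.49 to 6.34 CPM against 0.224 to 0.859 CPM in Runx3 +/+ library 1, and the intervals of Runx3 +/+ library 1 and of all 3 Runx3 +/WRPW libraries overlapped. These intervals cover counting error only. The log2 difference was -3.97 ± 1.15 (edgeR adjusted p = 0.0743; 95% interval -6.77 to -1.17). Without Runx3 +/+ library 2 it was -1.28 (adjusted p = 0.832). In bulk libraries a few cells with much Cd4 and many cells with little cannot be told apart.

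Other markers of CD4 lineage or immature cells went both ways between Runx3 +/+ libraries 1 and 2. The 8 markers of double-positive or immature thymocytes summed to 66.5 and 64.0 CPM in Runx3 +/+ libraries 1 and 2 and to 43.6 to 53.7 CPM in Runx3 +/WRPW. A large part of each sum was Cd1d1 alone, at 26.5 to 31.7 CPM over the libraries. The upper end in Runx3 +/WRPW was library 2, where Arpp21 was at 12.4 CPM. Arpp21 was at 0.846 and 0.782 CPM in libraries 1 and 3 of that genotype, and at 3.50 and 2.60 CPM in Runx3 +/+. Of these 8, Dntt, the template-independent DNA polymerase of immature lymphocytes, was called lower in Runx3 +/WRPW, at 12.7 and 11.8 against 5.26, 2.18 and 2.53 CPM (edgeR adjusted p = 0.0280; lost without Runx3 +/+ library 1 or 2 or Runx3 +/WRPW library 3). Cd24a was at 16.7 and 15.0 against 9.69, 9.96 and 12.4 CPM (adjusted p = 0.0550). Rag1 was at no more than 0.644 CPM and Ptcra at no more than 0.0920 CPM in any library. Of the 4 CD4 single-positive markers, which include Cd4 and Zbtb7b, the sum was 178 and 69.9 CPM in Runx3 +/+ and 350 to 381 CPM in Runx3 +/WRPW. Nearly all of it was Izumo1r, which encodes folate receptor 4, at 177 and 63.5 CPM in Runx3 +/+ libraries 1 and 2. Cd40lg, the CD40 ligand of helper cells, was at 0.327 and 0.719 CPM there. Of the other genes in the CD4 helper list below, Icos (84.0 and 159 CPM) and Il6ra (44.2 and 69.5 CPM) were higher in library 2. So were Maf (0.701 and 2.48 CPM) and Ccr4 (12.9 and 14.5 CPM). Cd5 (326 and 299 CPM), Cd28 (173 and 141 CPM) and Tnfrsf4 (11.7 and 8.07 CPM) were lower in library 2 than in library 1. The regulatory T cell gene Foxp3 was at 5.09 and 9.63 CPM and Ctla4 at 4.20 and 8.59 CPM in these libraries, against 0.414 to 1.19 and 1.10 to 1.58 CPM in Runx3 +/WRPW. The other 2 regulatory T cell markers did not follow: Il2ra was at 3.78 and 3.96 against 6.45, 4.61 and 4.09 CPM, and Ikzf2 at 193 and 306 against 239, 168 and 329 CPM. The 4 summed to 207 and 328 CPM in Runx3 +/+ and to 174 to 334 CPM in Runx3 +/WRPW. The part of such cells in the Cd4 value was not tested.

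Zbtb7b (chromosome 3, 89377644 to 89393673), the gene of ThPOK, had 8 and 7 counts in Runx3 +/+ and 4, 4 and 3 counts in Runx3 +/WRPW, or 0.374 and 0.280 against 0.0914, 0.249 and 0.138 CPM. It was below the count filter. Fitted without that filter, its log2 difference was -1.04 ± 1.61 (edgeR adjusted p = 0.699; 95% interval -4.86 to 2.77), so a difference was not detectable at this depth. In Runx3 +/+ library 2, where Cd4 was raised, Zbtb7b had 7 counts against 8 in library 1. Their exact Poisson 95% intervals, 0.11 to 0.58 and 0.16 to 0.74 CPM, overlapped widely. These counts cannot decide whether Zbtb7b differed between the libraries. An antisense gene, Gm15417, shares 116 bases with Zbtb7b exons. It had 1 and 1 counts in Runx3 +/+ and 12, 6 and 8 counts in Runx3 +/WRPW. The strand setting of the counting is not stated.

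Of the factors that act upstream of ThPOK, Tox (chromosome 4, 6686353 to 6991557) encodes a high-mobility-group protein needed for CD4 T cells to develop. It stood at 144 and 116 CPM in Runx3 +/+ and at 174, 184 and 232 CPM in Runx3 +/WRPW. Every Runx3 +/WRPW library lay above both Runx3 +/+ libraries. The log2 difference of 0.59 ± 0.15, or 1.51-fold, fell just short (edgeR adjusted p = 0.0566; 95% interval 0.22 to 0.97). It passed with limma-voom (adjusted p = 0.0462), upper-quartile factors (adjusted p = 0.0487), a filter that asked for 1 CPM throughout a genotype (adjusted p = 0.0426) and DESeq2 (adjusted p = 0.00259). Over all alternatives the adjusted p ran from 0.00259 to 0.470, and the value was 0.44 to 0.72 with 1 library left out.

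Gm11802, an antisense gene within Tox that shares 260 bases (3.42%) with its exons, stood at 2.62 and 1.96 CPM in Runx3 +/+ and at 4.78, 6.10 and 6.07 CPM in Runx3 +/WRPW. It was named after its values were seen. It was 2.47-fold higher in Runx3 +/WRPW (edgeR adjusted p = 0.0258). The call was lost in 4 of the 5 fits with 1 library left out, all but that without Runx3 +/WRPW library 2, where the log2 difference was 1.24 against 1.30 with all libraries. Without strand, reads of the antisense gene and of Tox cannot be told apart.

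Gata3 (chromosome 2, 9857078 to 9887953), a zinc-finger factor required for CD4 lineage cells and for Zbtb7b expression, was at 37.8 and 49.3 CPM in Runx3 +/+ and at 31.8, 33.8 and 28.0 CPM in Runx3 +/WRPW. The genotypes did not overlap, with 37.8 in one next to 33.8 in the other. The log2 difference of -0.48 ± 0.14 did not pass (edgeR adjusted p = 0.0714; 95% interval -0.82 to -0.15). It was -0.29 without Runx3 +/+ library 2 (adjusted p = 0.425), and DESeq2 gave an adjusted p = 0.0251. Over all alternatives the adjusted p ran from 0.0251 to 0.425. Gata3 and Tox, both CD4 lineage factors, thus had estimates of opposite sign.

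Myb (chromosome 10, 21124930 to 21160984), a factor of early thymocytes that acts on Gata3, was at 84.2 and 59.7 CPM in Runx3 +/+ and at 79.4, 97.9 and 84.6 CPM in Runx3 +/WRPW. The genotypes overlapped. The log2 difference was 0.28 ± 0.16 (edgeR adjusted p = 0.315; 95% interval -0.12 to 0.67), and 0.04 without Runx3 +/+ library 2.

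**Figure D4:**
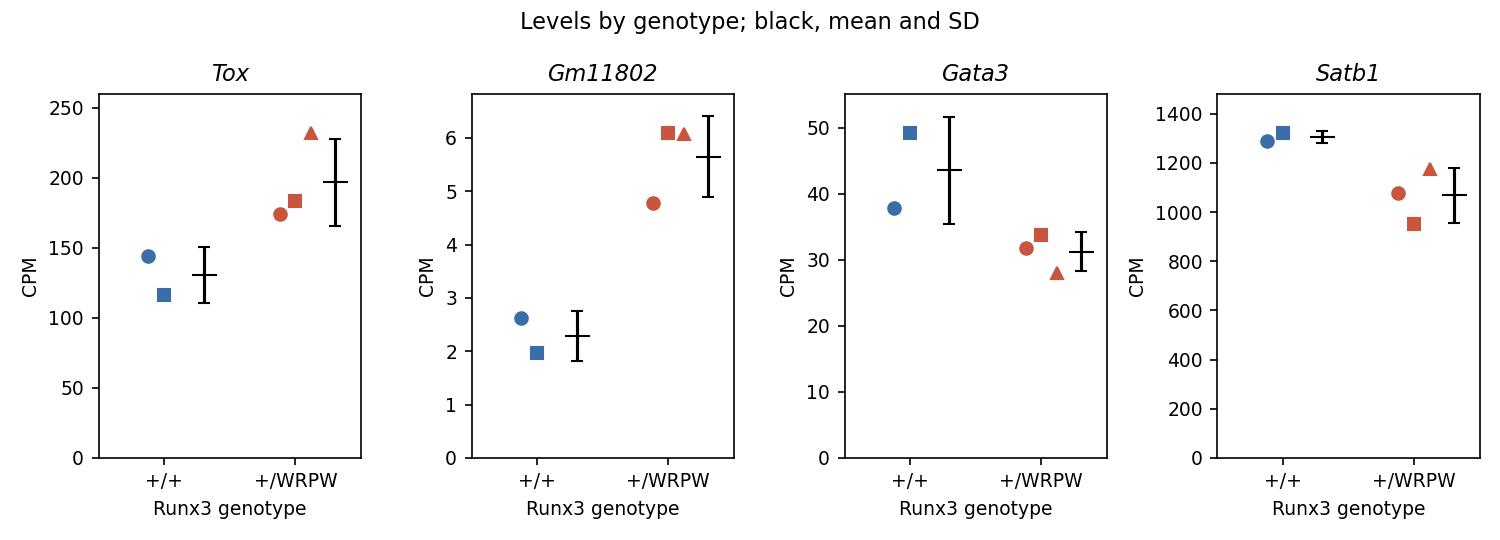
CPM of Tox, its antisense gene Gm11802, Gata3 and Satb1 in each library by Runx3 genotype (points; marker shape, library number), with the mean and SD beside them. For each gene the 2 Runx3 +/+ libraries and the 3 Runx3 +/WRPW libraries do not overlap; among them only Gm11802 passed the test.

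Of the chromatin and zinc-finger regulators, Satb1 (chromosome 17, 51736187 to 51833290), a genome organiser that acts on the enhancers of Cd4, Cd8a, Zbtb7b and Runx3, was at 1290 and 1323 CPM in Runx3 +/+ and at 1077, 952 and 1175 CPM in Runx3 +/WRPW. All 3 Runx3 +/WRPW libraries were lower. The log2 difference of -0.29 ± 0.10 did not pass (edgeR adjusted p = 0.105; 95% interval -0.53 to -0.06). DESeq2 gave an adjusted p = 0.0259, within a range of 0.0259 to 0.538 over all alternatives.

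Bcl11b (chromosome 12, 107910403 to 108004145), the zinc-finger factor that holds T cell identity, was at 541 and 644 CPM in Runx3 +/+ and at 595, 508 and 625 CPM in Runx3 +/WRPW. The genotypes overlapped. The log2 difference was -0.04 ± 0.12 (edgeR adjusted p = 0.860), with a 95% interval from a ratio of 0.796 to a ratio of 1.19.

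Patz1 (chromosome 11, 3289131 to 3309083), whose product MAZR represses Zbtb7b in CD8 lineage cells, had the smallest SE of the 9 tested genes, at 100 and 90.3 CPM in Runx3 +/+ and at 91.2, 87.0 and 86.5 CPM in Runx3 +/WRPW. The genotypes overlapped. The log2 difference was -0.11 ± 0.07 (edgeR adjusted p = 0.345), with a 95% interval from a ratio of 0.826 to a ratio of 1.04. The 95% intervals of Cd8a, Bcl11b, Patz1 and Satb1 (for Satb1 a ratio of 0.694 to 0.962) did not reach a 1.5-fold difference. That of Cd8b1 reached a ratio of 0.556 and that of Myb a ratio of 1.59. All of these intervals rest on the spread among these libraries alone.

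Runx3 +/+ library 2 differed from library 1 in several of these genes at once. It had the higher Cd4, Cd8b1, Gata3 and Bcl11b and the lower Cd8a, Tox and Myb. Without it the log2 difference was closer to 0 for Cd4, Cd8b1, Gata3, Tox, Myb and Satb1, and the sign turned for Cd8a (-0.09), Cd8b1 (0.01) and Bcl11b (0.08). Without Runx3 +/WRPW library 2 the differences were -4.59 for Cd4, -0.42 for Cd8b1, 0.64 for Tox, -0.54 for Gata3 and -0.22 for Satb1, and 0 of the 9 genes was called.

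The surrounding pathway was described with 7 gene lists drawn up from general knowledge with earlier results of these data known, holding 94 genes beside the 10. Of the 88 that were tested, 26 were called, 8 higher and 18 lower. The background is 13.6% of all genes, 6.24% higher and 7.33% lower. Without Runx3 +/+ library 1 the number was 11 of 94 tested (2.95% of all genes), and without library 2 it was 5 of 93 (1.52%). Without Runx3 +/WRPW libraries 1, 2 and 3 it was 16, 25 and 17 of 88 (5.71%, 10.8% and 6.97% of all genes). Of the 23 called genes named by a fixed rule, 3 (Tle3, Id3 and Itgae) were called in every fit with 1 library left out. A lost call was not a change of direction: the sign of all 23 was the same in each of these fits. The calls of Dnmt1, Il2rg, Ccr4, Cd28, Izumo1r, Cd247, Lat and Cd3d were lost both with no low-count filter and with the replicate number as a block, that of Id2 with no filter, and those of Egr1, Egr2, Foxp3 and Ctla4 with the block.

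Among 20 factors of the Cd4 silencer and enhancer, 4 fell, 1 rose and 15 did not pass, with a median log2 fold change of -0.13. Tle3, a Groucho-type corepressor that Runx proteins recruit, fell 2.01-fold (edgeR adjusted p = 0.00327), with a mean of 295 ± 44.8 CPM in Runx3 +/+ (SD, n = 2) and of 147 ± 1.65 CPM in Runx3 +/WRPW (SD, n = 3). The 1 gene that rose was another Groucho gene, Tle4, at 115 and 105 against 146, 134 and 152 CPM (1.31-fold; edgeR adjusted p = 0.0282). No gene of this list was called higher without Runx3 +/+ library 1 or 2, without Runx3 +/WRPW library 1 or 3, with no low-count filter or with the block. Tle1 was at 8.64 and 14.0 against 17.1, 21.3 and 18.9 CPM (adjusted p = 0.0779). Lef1 fell 3.96-fold and Runx1, which silences Cd4 in immature thymocytes, 3.92-fold, both calls being lost without Runx3 +/+ library 2. Dnmt1, the maintenance DNA methyltransferase, fell 1.34-fold (lost without Runx3 +/+ library 1 or 2 or Runx3 +/WRPW library 1). The chromatin remodelling genes Smarca4, Smarce1 and Chd4 had log2 differences of -0.08, -0.04 and -0.06.

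The 13 genes of the Cd8 locus and its cytokine input had 1 higher, 1 lower and 11 not passing, with a median of -0.16. Socs1, an inhibitor of cytokine signalling, rose 2.39-fold, from 64.3 ± 1.55 to 153 ± 29.7 CPM (edgeR adjusted p = 0.00756). Il2rg, the common cytokine receptor chain, fell 1.39-fold. Both calls were lost without Runx3 +/+ library 1 or 2, while with any 1 library left out the log2 difference ran from 1.10 to 1.39 for Socs1 and from -0.52 to -0.44 for Il2rg. The Runx3-inducing cytokine receptor gene Il7r, at 383 and 226 against 460 to 544 CPM, did not pass (adjusted p = 0.0786).

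Of 10 other factors around the ThPOK circuit, 3 fell, 1 rose and 6 did not pass, with a median of -0.05. Id3, an inhibitor of E proteins, fell 4.09-fold from 78.4 ± 36.1 to 19.1 ± 2.33 CPM (edgeR adjusted p = 0.00837). Egr1 fell 1.96-fold and Egr2, both induced by T cell receptor signals, 1.60-fold, while Id2 rose 2.24-fold. The Egr1 and Egr2 calls were lost without Runx3 +/+ library 1 or 2, that of Egr2 also without Runx3 +/WRPW library 3, and that of Id2 without Runx3 +/+ library 2 or Runx3 +/WRPW library 1 or 3. Zbtb7a, the closest relative of Zbtb7b in the list, was at 160 and 181 against 180 to 185 CPM (adjusted p = 0.437).

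Of 12 CD4 helper genes, 3 fell, 2 rose and 7 did not pass, with a median of -0.25. Those that fell were Foxp3 (9.29-fold) and Ctla4 (4.98-fold), genes of regulatory T cells, and the chemokine receptor gene Ccr4 (3.48-fold). Those that rose were Izumo1r (3.08-fold; edgeR adjusted p = 0.0487) and the costimulatory receptor gene Cd28 (1.36-fold). The calls of Foxp3, Ctla4, Ccr4 and Cd28 were lost without either Runx3 +/+ library. That of Izumo1r was lost without any 1 of the Runx3 +/WRPW libraries and with robust dispersion estimates. Cd28 was also lost without each Runx3 +/WRPW library, Ctla4 without library 3 and Ccr4 without library 1 or 3 of that genotype.

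Of 14 CD8 lineage genes, 3 rose, 3 fell and 8 did not pass, with a median of -0.11. Itgae, which encodes the CD103 integrin, fell 13.9-fold from 799 ± 106 to 57.2 ± 6.84 CPM (edgeR adjusted p = 0.000189). Cd8a had the interval around a ratio of 1 given above. Both are known as genes that Runx3 sustains, which was not tested in these cells. Klrd1 fell 12.7-fold, Eomes rose 9.37-fold and Crtam rose 1.80-fold. Klrd1 and Crtam lost their call without Runx3 +/+ library 2, and Eomes without either Runx3 +/+ library.

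Of 15 genes that work beside the coreceptors at the T cell receptor, 3 fell, 0 rose and 12 did not pass, with a median of -0.12. Cd247 (the zeta chain) fell 1.28-fold, the adaptor gene Lat 1.29-fold and Cd3d 1.23-fold (edgeR adjusted p = 0.0278, 0.0337 and 0.0390). Leaving out 1 library ended the Lat and Cd3d calls whichever it was, and that of Cd247 without either Runx3 +/+ library or Runx3 +/WRPW library 1. In these fits the log2 difference ran from -0.34 to -0.27 for Cd3d, from -0.48 to -0.30 for Lat and from -0.41 to -0.33 for Cd247. Lck, the kinase that CD4 and CD8 alpha carry to the receptor, was at 1252 and 1398 against 1188 to 1241 CPM (adjusted p = 0.346). B2m, part of the class I ligand of CD8, had a log2 difference of -0.07 (adjusted p = 0.603).

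**Figure D5:**
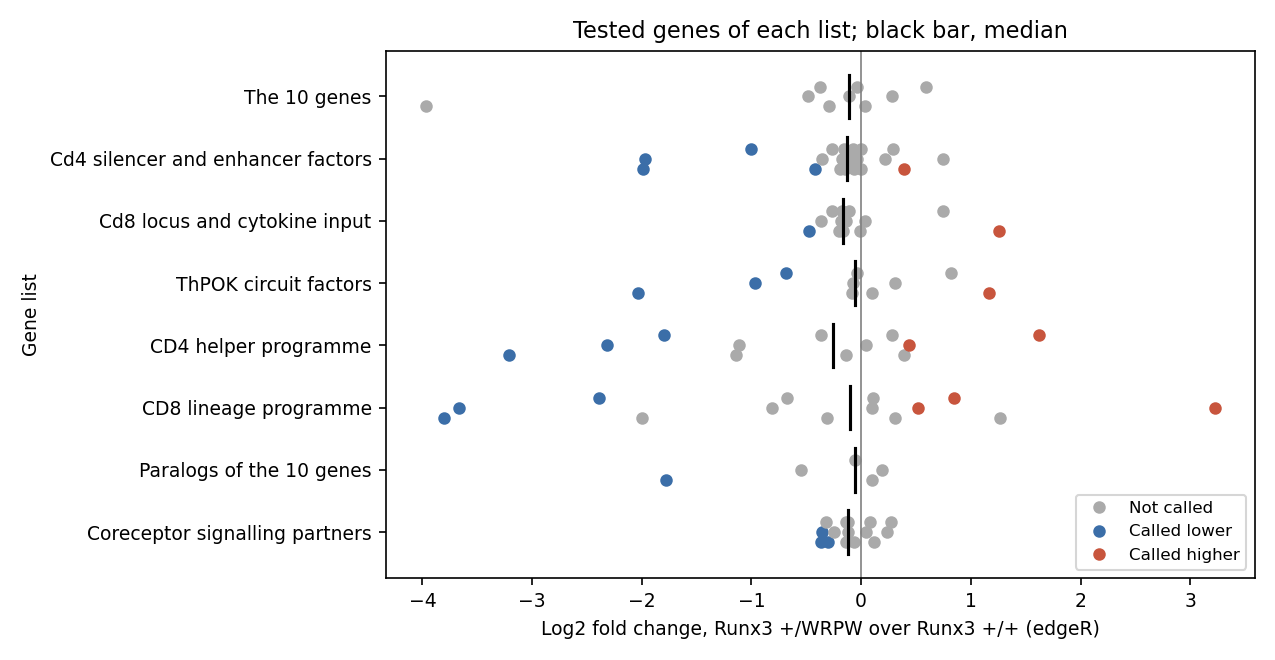
Log2 fold change of each tested gene in the 10-gene set and in 7 lists (red, called higher; blue, called lower; grey, not called), with the median as a black bar. The medians lie between -0.25 and -0.05, and 0 of the 9 tested genes of the set in the top row is called.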

How the data were processed

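RNA was measured in 5 libraries of sorted mature CD8 single-positive thymocytes. The deposited values are raw read counts per gene symbol, 1 file per sample. The tools named per the submitters' processing notes are HISAT2 2.2.1, cutadapt 4.0, edgeR 3.36.0 and featureCounts 2.0.8, on mm10; for annotation, strand setting and multiply mapped reads the notes hold nothing (not given in the sources used here). The column header of the Runx3 +/+ library 2 file bears the number 3, and that of the Runx3 +/WRPW library 2 file a generic aligner name with no sample; sample records alone set both assignments.

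Counts were compared by genotype with edgeR 4.0.16 in R 4.3.3 (scaling by TMM; filterByExpr, minimum count 10; the quasi-likelihood functions glmQLFit, then glmQLFTest; Benjamini-Hochberg over 13666 genes), without a replicate block. The SE is the absolute log2 fold change over the square root of F, and its 95% interval uses the test's degrees of freedom. CPM are TMM-scaled, and CPM per kb use merged GENCODE M21 exons. No pair of libraries agreed within sampling noise (chi-square per gene of at least 15.3). At 3 counts, a gene stands at 0.0686 to 0.191 CPM. The pipeline was tested on simulated data. DESeq2 1.42.0 and limma 3.58.1 were alternatives, with other scalings, filters and left-out libraries. The 10 genes, lists and tests were chosen with earlier results of these data known. Named list genes are the called ones with the smallest p-values, up to 4 per list, or up to 2 where none passed. Some genes were added after their values were seen. These are Il7r, Zbtb7a, Tle4, Tle1, Csf1r, Cd24a, Il2ra, Ikzf2, Lck, B2m, Cd40lg, Rag1, Ptcra and the remodelling genes. Gm11802, Gm15417, Icos, Il6ra, Maf, Cd5, Tnfrsf4, Cd1d1 and Arpp21 were also added in this way. 4 marker genes (Trbc1, Trbc2, Tcrg-C1 and Trdc) were not used here. Values of some marker and related genes are not reported here.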

Additional observations from a re-analysis of the deposited data

How the results depend on the processing

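The count of the 10 genes that passed was 0 with all libraries, 4 with DESeq2, and 1 each with limma-voom, upper-quartile factors and the filter of 1 CPM; it was 0 to 1 with 1 library left out. Over all genes, 1855 passed, 1079 with no low-count filter and 277 to 1431 with 1 library left out; for the list genes these were 26, 16 and 5 to 25. DESeq2 called 2705 genes. The log2 difference of the Cd8b1 to Cd8a ratio was -0.85 to 0.10 with 1 library left out. With the replicate numbers of the labels as a block, 754 genes, 14 list genes and 0 of the 10 passed. Deviations from the genotype mean correlated at -0.0492 and 0.00244 between same-numbered libraries. With 2 Runx3 +/+ libraries these deviations mirror each other, so this check cannot decide whether equal numbers are a pairing. The labels do not say that they share an animal, litter or day, and the block is given as an alternative setting only. The log2 difference changed sign for 6 genes. With 1 library left out it ran from -0.0927 to 0.129 for Cd8a, -0.726 to 0.00732 for Cd8b1, -0.196 to 0.0840 for Bcl11b, and, for marker genes at low counts, -0.81 to 0.869 for Sox13, -0.27 to 0.528 for Alas2 and -0.17 to 0.845 for Epcam. The negative end of Cd8a and the positive ends of Cd8b1 and Bcl11b came without Runx3 +/+ library 2. With the replicate block Cd8a was at -0.0115 and Sox13 at -0.32, and Sox13 was at -0.00615 with RLE factors and -0.69 with limma-voom. The causes were not tested, except that fits without a Runx3 +/+ library have 1 sample in that genotype, assumed to vary like the others, and test more genes. Cd4 could not be fitted under the 1 CPM filter. Depth limits Cd4 and Zbtb7b, at 1 to 134 and 3 to 8 counts.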

Other observations

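Genes that lie within 100 kb of the 10 genes were described as well, an addition made after the data were seen. There were 37 such protein-coding genes in the files, 28 of them tested, and 5 (17.9%, against 13.6% of all genes) were called with edgeR, 1 higher and 4 lower, with a median log2 fold change of 0.14. Beside Cd4, the mitotic gene Cdca3 fell, with a log2 change of -2.20, while Lag3, a relative of Cd4 next to it, did not pass (adjusted p = 0.229), at 2.94 and 7.23 CPM in the wild type and 17.0, 15.3 and 4.83 CPM in the heterozygotes. Beside Cd8a, Rmnd5a, a subunit of a ubiquitin ligase, fell by 0.34 on the log2 scale. Near Zbtb7b, the cell-cycle gene Cks1b fell by 1.28 on the log2 scale and Pbxip1 had a log2 change of 0.28. Near Patz1, Limk2, a kinase of the actin cytoskeleton, fell by 0.52 on the log2 scale. The edgeR adjusted p was 0.00494 for Cdca3, 0.0392 for Rmnd5a, 0.0124 for Cks1b, 0.0378 for Pbxip1 and 0.00455 for Limk2. With 1 heterozygote library left out, Pbxip1 lost its call whichever it was, and Rmnd5a without library 1 or 3. Cdca3, Cks1b and Limk2 kept theirs in those fits. Leaving out wild-type library 1 or 2 gave 2 and 0 called genes, leaving out heterozygote library 1, 2 or 3 gave 3, 4 and 3, and no low-count filter or the replicate block gave 3 each.

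Paralogs of the 10 genes were mostly silent. Of 11, 5 were tested and 1 passed, Mybl2, a cell-cycle relative of Myb, which fell 3.44-fold (edgeR adjusted p = 0.00352, lost without Runx3 +/+ library 2). Tox4, a widely expressed relative of Tox, had a log2 difference of -0.05 (adjusted p = 0.717). Bcl11a, Zbtb7c and Gata2 were at 5.85, 2.55 and 5.42 CPM in Runx3 +/WRPW library 2, the library with counts at many more genes, and at no more than 0.138 CPM in any other library. The thymic epithelial gene Foxn1 (4.67 CPM there, no more than 0.0460 elsewhere) and Flt3 of dendritic cells (6.04 and no more than 0.230 CPM) showed the same pattern, while the erythroid list was at 0.560 CPM in that library and 0.467 to 0.846 CPM in the others.

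Beside 13.6% of all genes, the marker lists gave 1 of 5 tested CD8 T cell genes called (Cd3d, lower), S1pr1, Klf2 and Ccr7 of the mature single-positive list lower, 1 of 6 immature genes lower (Dntt), 1 of 3 CD4 single-positive genes higher (Izumo1r) and 2 of 4 regulatory T cell genes lower. For gamma-delta, natural killer, B, myeloid, dendritic, erythroid and thymic epithelial markers, 0 of 8 tested genes was called by edgeR, DESeq2 or limma-voom, and 2 of them had an unadjusted p under 0.05 (29.8% of all genes).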
